A study of Arabidopsis thaliana with 12 samples.

Results

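The NADPH oxidases of Arabidopsis thaliana, called respiratory burst oxidase homologs (RBOH), form a family of 10 genes: RBOHA (AT5G07390), RBOHB (AT1G09090), RBOHC (AT5G51060), RBOHD (AT5G47910), RBOHE (AT1G19230), RBOHF (AT1G64060), RBOHG (AT4G25090), RBOHH (AT5G60010), RBOHI (AT4G11230) and RBOHJ (AT3G45810). They were taken by gene identifier from a table of read counts per gene that lists 23911 genes, and all 10 had a row. After a filter on low counts, 8 of the 10 were among the 20924 genes tested, and RBOHH and RBOHJ were not. RBOHE, RBOHG and RBOHI carry no gene name in the reference annotation, and their names here come from the list of identifiers that defined the family.

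An RBOH protein sits in the plasma membrane and passes electrons from cytosolic NADPH to oxygen outside the cell, which gives superoxide and then hydrogen peroxide in the cell wall space. Calcium binding at its N-terminal EF hands and phosphorylation by kinases turn the enzyme on, so transcript level is only one of its controls. Members differ in where they act: RBOHD makes the oxidative burst of immunity, RBOHD and RBOHF act in abscisic acid (ABA) signalling in guard cells, RBOHC drives root hair growth, RBOHF takes part in lignification of the endodermal Casparian strip, RBOHE acts in the anther tapetum, and RBOHH with RBOHJ acts in pollen tubes.

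Poly(A) RNA was sequenced from whole seedlings aged 2 to 3 weeks in 4 groups of 3 samples. The groups were wild type Col-0 without ABA, Col-0 after 4 h with 50 µM ABA as a spray, the mutant hda9-1 without ABA, and hda9-1 after the same spray. Plants of every group grew on MS medium with 1% sucrose at 20 °C in 16 h light and 8 h dark. HDA9 encodes a histone deacetylase, and hda9-1 is a single mutant allele of it. Grouping followed the titles of the samples, which list each genotype with and without ABA. A separate treatment field conflicts with them, since it marks hda9-1 as treated and wild type as untreated throughout. Column names in the table read 0h and 4h, and no mock spray is named in the labels used here, so the effect of ABA, of 4 h of waiting and of the time of day cannot be told apart. Samples of a group are titled biological replicates, but nothing states that they were separate cultures, and the p-values then measure only the spread among them, which may be technical. In whole seedlings, fewer cells of a type and less RNA per cell cannot be told apart.

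Library totals ran from 42703802 to 52820930 counts. HDA9 itself was at 16.2 ± 0.721 CPM in untreated and 16.6 ± 0.252 CPM in treated wild type, and at 5.34 ± 0.583 and 5.16 ± 0.344 CPM in hda9-1 (mean ± SD, n = 3). CPM values here are counts scaled to library size with TMM factors. The libraries of hda9-1 with ABA differed among themselves. There log2 CPM changed with each doubling of exon length by 0.0558 in replicate 2 but by -0.227 in replicate 1 and by -0.2378 in replicate 3. Slopes of the 9 other libraries lay between -0.0683 and 0.1774, a range that holds replicate 2 but not replicates 1 and 3. Among those 9, the untreated hda9-1 libraries were at 0.1302 to 0.1774. All wild type libraries lay below them, at -0.0683 to 0.0754, so the slope also differed between the untreated genotypes. Leaving out replicate 2 of hda9-1 with ABA keeps only replicates 1 and 3 in that group. The tested RBOH genes have exon lengths from 2701 to 3994 nt. Values without replicate 2 of that group and with length and GC trends removed are therefore given where they change a call. The defining markers of root hairs, endodermis, guard cells and mesophyll were all detected in every group. Of 6 pollen markers only 2 had a row in the table.

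The 250 bases before the annotated transcript start are shown for RBOHD, RBOHG and RBOHI, which fell after ABA in both genotypes, and for RBOHC, whose window holds matches to the core letters of the ABA response element (ABRE). The windows lie at chr5:19396791-19397040 (plus strand) for RBOHD, chr4:12883806-12884055 (minus) for RBOHG, chr4:6845628-6845877 (minus) for RBOHI and chr5:20762462-20762711 (minus) for RBOHC, in the TAIR10.1 assembly from RefSeq. Capitals mark matches, on either strand, to the ABRE core ACGTG, the W-box core TTGAC or the DRE core CCGAC, which are binding motifs of bZIP, WRKY and DREB factors. The G-box CACGTG, which contains the ABRE core, was searched too.
RBOHD: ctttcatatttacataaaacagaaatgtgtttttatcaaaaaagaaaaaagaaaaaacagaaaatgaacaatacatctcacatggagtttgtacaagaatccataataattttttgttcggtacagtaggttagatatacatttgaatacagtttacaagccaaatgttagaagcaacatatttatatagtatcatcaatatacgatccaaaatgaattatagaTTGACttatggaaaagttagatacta
RBOHG: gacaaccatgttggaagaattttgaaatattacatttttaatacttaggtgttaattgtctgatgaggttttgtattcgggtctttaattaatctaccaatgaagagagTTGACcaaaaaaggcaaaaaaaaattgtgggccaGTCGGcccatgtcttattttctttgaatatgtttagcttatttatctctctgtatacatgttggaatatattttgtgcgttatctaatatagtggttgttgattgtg
RBOHI: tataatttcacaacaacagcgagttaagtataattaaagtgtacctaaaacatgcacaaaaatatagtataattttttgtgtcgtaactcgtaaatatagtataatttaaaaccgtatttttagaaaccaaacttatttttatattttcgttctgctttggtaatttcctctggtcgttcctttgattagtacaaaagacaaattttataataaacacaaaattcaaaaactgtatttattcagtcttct
RBOHC: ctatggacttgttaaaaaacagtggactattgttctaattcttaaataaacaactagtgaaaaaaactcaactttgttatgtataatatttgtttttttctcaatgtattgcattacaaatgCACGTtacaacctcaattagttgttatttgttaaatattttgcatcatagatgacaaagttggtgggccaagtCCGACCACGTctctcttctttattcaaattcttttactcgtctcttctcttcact
Windows of 8 members were searched. The ABRE core occurred at 2 positions in the RBOHC window and in none of the other 7, against 22.9% of the 27443 windows of this length before annotated genes. The W-box core had 2 matches in RBOHH and 1 each in RBOHD, RBOHE and RBOHG, and 44.9% of all windows hold it. The DRE core had 1 match each in RBOHC and RBOHG, against 12% of all windows, and in RBOHC it adjoins an ABRE core. The G-box, held by 6.49% of all windows, had no match in these 8. RBOHF, RBOHI and RBOHJ windows held none of these letters. For RBOHE the annotation starts at the translation start, so its window is not shown.

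Few 31-base words of the members recur elsewhere in the genome, but how reads were assigned to them was not tested. Coding sequences were between 52.3% and 80.5% identical in pairwise alignment at the nucleotide level, highest for the pollen pair RBOHH and RBOHJ, followed by 74.7% for RBOHC and RBOHG. Of all 31-base words of each transcript, 0 recurred elsewhere in the genome for 7 members, 3 for RBOHB and 12 each for RBOHH and RBOHJ. RBOHA, RBOHB, RBOHE and RBOHG overlap a gene on the other strand by 169, 59, 133 and 37 nt of exon. The library kit marks the strand, but the use of strand in counting is not given in the sources used here. The partner of RBOHA, AT5G07380, was at 0.666 to 1.31 CPM on average in the 4 groups, and that of RBOHE, AT1G19240, at 3.5 to 6.34 CPM, both below the level of the RBOH gene. The other partners lay above it: RPT5B, beside RBOHB, was at 32.2 to 39.2 CPM and CHLM, beside RBOHG, at 225 to 367 CPM on average. After ABA, RPT5B rose by log2 fold changes of 0.25 ± 0.08 (SE) in wild type and 0.28 ± 0.08 in hda9-1, and CHLM fell by 0.42 ± 0.08 and 0.59 ± 0.08. The part of reads from these partners in the values of RBOHB and RBOHG was not tested.

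Without ABA, RBOHD was the most abundant member in both genotypes, and after ABA RBOHF had the highest mean. Per kilobase of exon, wild type without ABA held RBOHD at 21 ± 1.27 RPKM, ahead of RBOHF at 10.7 ± 1.14, RBOHC at 9.3 ± 1.23, RBOHG at 7.03 ± 0.0425, RBOHB at 5.66 ± 0.612, RBOHE at 3.67 ± 0.156, RBOHA at 2.95 ± 0.589 and RBOHI at 0.992 ± 0.193. Only RBOHF and RBOHC overlapped among neighbours of this order. In wild type with ABA the order was RBOHF (13 ± 0.529 RPKM), RBOHE (10.8 ± 0.971), RBOHD (9.48 ± 0.765), RBOHC (7.21 ± 0.556), RBOHA (1.96 ± 0.137), RBOHB (1.3 ± 0.464), RBOHG (1.13 ± 0.113) and RBOHI (0.256 ± 0.101). RBOHE and RBOHD overlapped there, as did RBOHB and RBOHG. In hda9-1 without ABA, RBOHD at 15.2 ± 2.22 RPKM and RBOHF at 8.45 ± 0.491 led without overlap, and each of RBOHC, RBOHB, RBOHG, RBOHE and RBOHA, from 4.89 down to 1.73, overlapped its neighbour, with RBOHI last at 0.596. In hda9-1 with ABA, RBOHF at 11.1 ± 1.83 RPKM overlapped RBOHE at 8.86 ± 0.928, and RBOHD followed at 6.55 ± 0.443, RBOHC at 4.72 ± 0.958, RBOHA at 1.36 ± 0.092, RBOHG at 0.645, RBOHB at 0.555, which overlapped RBOHG, and RBOHI at 0.212.

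**Figure D1:**
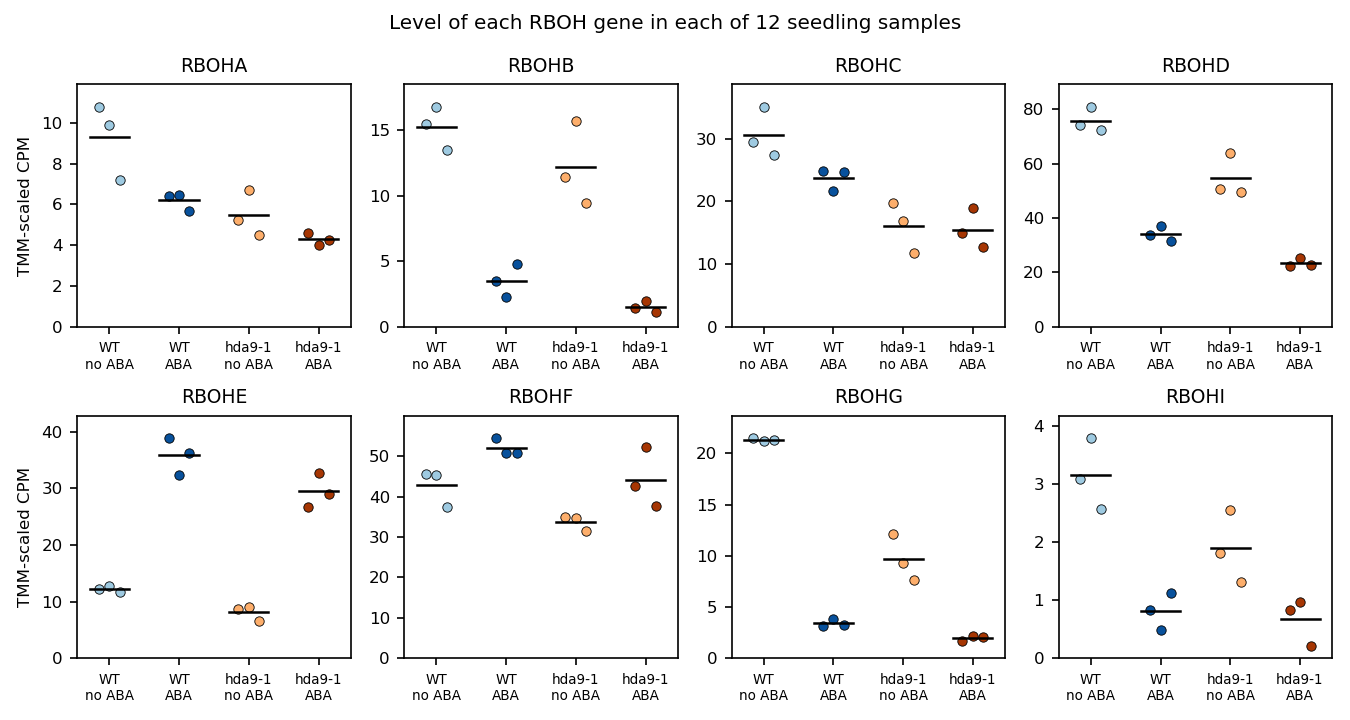
Level of the 8 tested RBOH genes in each of 12 samples, as TMM-scaled CPM on a linear axis from 0; points are samples, bars are means of 3, and colours are the 4 groups. RBOHB, RBOHD, RBOHG and RBOHI are low and RBOHE is high in both ABA groups, and every hda9-1 mean lies below the wild type mean of the same treatment.

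The family total was compared without a test. Summed over the 10 genes, the level in wild type was 61.4 ± 4.74 RPKM untreated and 45.1 ± 1.66 RPKM treated, and in hda9-1 it was 41 ± 5.55 and 34 ± 4.19 RPKM. Treated and untreated samples overlapped in hda9-1 and not in wild type. RBOHD made up 34.3% ± 1.18 of this sum in untreated wild type and 21% ± 2.23 after ABA, with 37.1% ± 3.14 and 19.4% ± 1.12 in hda9-1. RBOHE went the other way, from 5.99% ± 0.211 to 23.8% ± 1.33 in wild type and from 5.92% ± 0.338 to 26.2% ± 1.84 in hda9-1. The ratio of RBOHD to RBOHF, the pair known from ABA signalling in guard cells, was 1.97 ± 0.167 and 1.8 ± 0.223 without ABA in wild type and hda9-1, and 0.729 ± 0.0709 and 0.598 ± 0.0647 with ABA. Every untreated sample had a ratio of at least 1.6 and every treated sample one of at most 0.811.

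**Figure D2:**
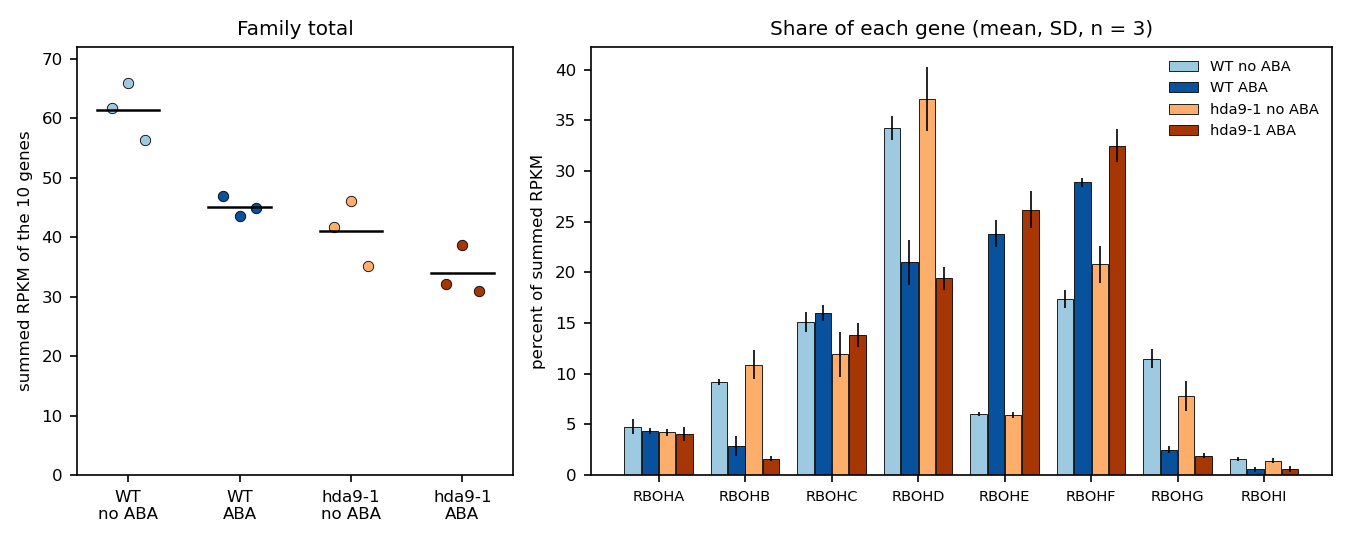
Left, summed RPKM of the 10 RBOH genes per sample, with the mean as a bar; right, percent of that sum held by each of the 8 tested genes, as mean with SD over 3 samples in each of 4 groups. The RBOHD share is 34.3% and 37.1% without ABA and 21% and 19.4% with it, while the RBOHE share rises from 5.99% and 5.92% to 23.8% and 26.2%.

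After ABA in wild type, RBOHA, RBOHB, RBOHD, RBOHG and RBOHI fell and RBOHE rose, while RBOHC and RBOHF did not pass the test. Calls needed an adjusted p under 0.05 in edgeR's quasi-likelihood test, with Benjamini-Hochberg adjustment over all tested genes, and by this rule 30.9% of all tested genes were called, 17% higher and 14% lower. The members' counts of 1 higher and 5 lower of 8 stand against those shares. With upper-quartile scaling, 43.3% in place of 54.9% of all calls were higher. The median log2 fold change was -0.87 over the 8 members and -0.02 over all tested genes. The samples of the 2 groups did not overlap for any of the 8, where 25.2% of all genes were non-overlapping higher and 26.4% lower.

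In hda9-1 the ABA comparison called RBOHB, RBOHD, RBOHG and RBOHI lower and RBOHE and RBOHF higher. There 41.9% of all genes were called, 23.3% higher and 18.6% lower. The members' median was -0.78, against 0.01 over all genes. Samples did not overlap for RBOHE and RBOHF, which were higher, and for RBOHB, RBOHD, RBOHG and RBOHI, which were lower, where 25.3% of all genes were non-overlapping higher and 21.3% lower. Of 3567 genes with at least 2701 nt of exon, the length of the shortest tested member, 33.5% were called lower in hda9-1 and 16.9% in wild type, so the share of lower calls moved with length in the mutant. The part of length in the members' values was not tested beyond removing its trend, after which the same number of members, 6, was called in hda9-1.

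RBOHD, the oxidase of the immune burst, fell in both genotypes to less than 0.5 times its untreated level. It was at 74.1, 81 and 72.3 CPM in the untreated wild type samples and at 33.8, 37.1 and 31.6 with ABA. In hda9-1 it was at 50.5, 63.9 and 49.7 CPM without ABA and at 22.5, 25.4 and 22.8 with it. All treated samples lay below all untreated samples of either genotype. The log2 fold change was -1.15 ± 0.10 (SE, adjusted p = 4.2e-07), or 2.22-fold lower, in wild type and -1.21 ± 0.11 (adjusted p = 2e-07) in hda9-1.

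RBOHF, its partner in guard cells, differed little and upward. Its values were 45.5, 45.3 and 37.5 CPM in untreated wild type and 54.5, 50.7 and 50.9 with ABA, with no overlap. In hda9-1 they were 35, 34.8 and 31.5 CPM without and 42.6, 52.2 and 37.8 with ABA, again without overlap and with replicate 2 highest. The log2 fold change of 0.28 ± 0.11 in wild type did not pass (adjusted p = 0.065), and that of 0.39 ± 0.11 in hda9-1 did (adjusted p = 0.011). Without hda9-1 ABA replicate 2 the calls changed places, with 0.31 in wild type (adjusted p = 0.013, range over alternatives 0.012 to 0.26) and 0.24 in hda9-1 (adjusted p = 0.056, range 0.00059 to 0.058). With length and GC trends removed both passed, at 0.28 (adjusted p = 0.022) in wild type and 0.47 (adjusted p = 0.00059) in hda9-1. Both also passed with trends removed and hda9-1 ABA replicate 2 left out, at 0.28 (adjusted p = 0.014) and 0.38 (adjusted p = 0.0036). Without hda9-1 untreated replicate 3 the hda9-1 call was also lost, at 0.33 and adjusted p = 0.058.

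RBOHB, whose known roles include seed after-ripening, fell strongly. It was at 15.5, 16.8 and 13.5 CPM in untreated wild type and at 3.47, 2.3 and 4.8 with ABA. In hda9-1 it was at 11.4, 15.7 and 9.45 CPM without and at 1.41, 1.96 and 1.12 with ABA. Groups were far apart in both genotypes, and the lowest values of all were those of treated hda9-1. The fold change was 4.35-fold lower in wild type (log2 -2.12 ± 0.26, adjusted p = 1.9e-05) and 8.08-fold lower in hda9-1 (log2 -3.01 ± 0.28, adjusted p = 8.2e-07).

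RBOHG, the closest relative of RBOHC by coding sequence here, had the largest fall of the family in wild type. Its 3 untreated wild type samples, at 21.5, 21.2 and 21.3 CPM, were nearly equal, and the treated ones were at 3.18, 3.82 and 3.28. In hda9-1 it was at 12.1, 9.33 and 7.67 CPM without ABA and at 1.66, 2.17 and 2.05 with it. All treated samples lay below all untreated ones. It was 6.22-fold lower in wild type (log2 -2.64 ± 0.17, adjusted p = 7.5e-09) and 4.93-fold lower in hda9-1 (log2 -2.30 ± 0.18, adjusted p = 4.3e-08).

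RBOHC, the root hair oxidase, was at 29.4, 35.1 and 27.3 CPM in untreated wild type and at 24.9, 21.6 and 24.6 with ABA, without overlap. In hda9-1 it was at 19.7, 16.8 and 11.7 CPM without and at 14.9, 18.9 and 12.7 with ABA, where the groups overlapped. Neither comparison passed, with log2 fold changes of -0.37 ± 0.18 (adjusted p = 0.13) and -0.05 ± 0.18 (adjusted p = 0.85). RBOHA was at 10.8, 9.89 and 7.22 CPM in untreated wild type and at 6.43, 6.47 and 5.7 with ABA. Its log2 fold change of -0.59 ± 0.18 passed (adjusted p = 0.021), but not without untreated replicate 1 (-0.46, adjusted p = 0.11), untreated replicate 2 (-0.54, adjusted p = 0.071) or ABA replicate 3 (-0.53, adjusted p = 0.087) of wild type, in a range over alternatives of 0.0086 to 0.11. In hda9-1 it was at 5.23, 6.69 and 4.52 CPM without and at 4.59, 4.01 and 4.28 with ABA, and did not pass (-0.35 ± 0.18, adjusted p = 0.14).

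RBOHE rose in both genotypes. It was at 12.3, 12.7 and 11.7 CPM in untreated wild type and at 38.9, 32.4 and 36.3 with ABA. In hda9-1 the values were 8.72, 9.08 and 6.52 CPM without and 26.7, 32.8 and 29.1 with ABA. Every treated sample exceeded every untreated one by a wide margin. The level was 2.93-fold higher in wild type (log2 1.55 ± 0.13, adjusted p = 1.2e-07) and 3.65-fold higher in hda9-1 (log2 1.87 ± 0.13, adjusted p = 1.4e-08). The overlapping gene AT1G19240 had log2 fold changes of 0.22 ± 0.22 (adjusted p = 0.48) and 0.76 ± 0.21 (adjusted p = 0.0094).

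RBOHI, the member nearest to RBOHF in coding sequence at 66% identity, was low throughout. It was at 3.1, 3.8 and 2.57 CPM in untreated wild type and at 0.831, 0.487 and 1.13 with ABA, and in hda9-1 at 1.82, 2.55 and 1.32 without and 0.831, 0.972 and 0.221 with ABA. Groups did not overlap in either genotype. The log2 fold changes were -1.95 ± 0.44 (adjusted p = 0.0028) and -1.48 ± 0.44 (adjusted p = 0.014). Without hda9-1 untreated replicate 2 the second was -1.21 with adjusted p = 0.065, in a range over alternatives of 0.0026 to 0.065.

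The pollen tube genes were near 0. RBOHH had 2 counts in ABA replicate 1 of wild type and 0 in the other 11 samples. RBOHJ had 1 and 2 counts in untreated wild type replicates 1 and 2 and 0 elsewhere. A count of 0 allows up to 0.0568 to 0.0703 CPM per library, from 3 counts of each total, for counting error only.

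**Figure D3:**
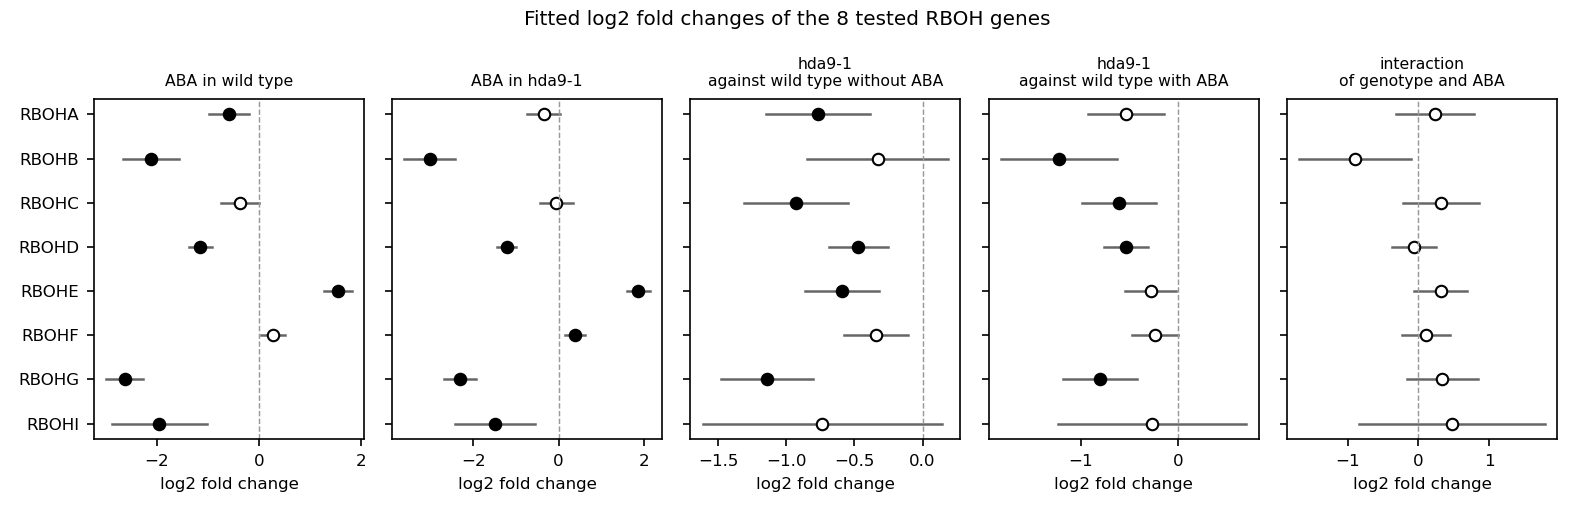
Log2 fold change with its 95% interval for the 8 tested RBOH genes in 5 contrasts; filled points passed an adjusted p of 0.05 and open points did not, and each panel has its own axis. RBOHE lies to the right of 0 in both ABA panels, all 8 genes lie to the left of 0 in both genotype panels, and no point is filled in the interaction panel.

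In the comparison of genotypes without ABA, RBOHA, RBOHC, RBOHD, RBOHE and RBOHG were lower in hda9-1 and none was higher. Of all tested genes 13.5% were called, 6.98% higher and 6.57% lower, and of long genes 4.74% were called lower. All 8 members had a negative fold change, as did 54.3% of all genes, and the members' median was -0.67 against -0.04 over all genes. For 7 of the 8, all but RBOHB, every hda9-1 sample lay below every wild type sample, and 19.6% of all genes were non-overlapping in that direction. Of all calls 51.5% were higher, against 35.1% with scaling by library size alone and 72.9% with length and GC trends removed. These 2 settings moved the median of all genes by -0.0535 and 0.0986. The members called lower with those trends removed were the same 5 and RBOHF.

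RBOHG differed most, at 7.67 to 12.1 CPM in hda9-1 against 21.2 to 21.5 in wild type, or 2.2-fold lower (log2 -1.14 ± 0.16, adjusted p = 0.00064). RBOHC, at 11.7 to 19.7 against 27.3 to 35.1 CPM, was 1.9-fold lower (log2 -0.93 ± 0.18, adjusted p = 0.0047). The highest mutant sample stayed below the lowest wild type sample for both genes. RBOHD was lower by a smaller margin, at 49.7 to 63.9 against 72.3 to 81 CPM (log2 -0.47 ± 0.10, adjusted p = 0.0082), and RBOHE, at 6.52 to 9.08 against 11.7 to 12.7 CPM, had a log2 fold change of -0.59 ± 0.13 (adjusted p = 0.0077). RBOHA, at -0.77 ± 0.18 (adjusted p = 0.012), lost its call without untreated replicate 1 (-0.64, adjusted p = 0.063) or 2 (-0.72, adjusted p = 0.052) of wild type or untreated replicate 3 of hda9-1 (-0.64, adjusted p = 0.061), in a range over alternatives of 0.0014 to 0.063. RBOHF at -0.34 ± 0.11 (adjusted p = 0.053), RBOHI at -0.74 ± 0.41 (adjusted p = 0.26) and RBOHB at -0.33 ± 0.24 (adjusted p = 0.41) did not pass. RBOHF passed under 10 of 24 alternatives, among them the fit without hda9-1 ABA replicate 2 (-0.33, adjusted p = 0.018, range over alternatives 0.014 to 0.2).

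Marker levels are given beside these values, for a comparison in which 6.57% of all genes were called lower. The summed level of 6 root hair markers, all detected in every group, was 96.9 to 157 CPM in untreated wild type and 13.6 to 70.8 CPM in untreated hda9-1. None of the 6 passed the test, and their median log2 fold change was -1.36. Of 9 endodermis markers, CASP2 at -0.60 (adjusted p = 0.041) and MYB36 at -0.72 (adjusted p = 0.041) were lower, with summed levels of 93.7 to 117 and 71.4 to 97 CPM. Of 6 guard cell markers, the potassium channel gene KAT1 at -0.46 (adjusted p = 0.02) was lower, and the sums were 61.7 to 63.5 and 45.2 to 56.6 CPM. Of 5 mesophyll and shoot markers, LHCB2.1 at -0.51 (adjusted p = 0.0092) was lower, the list's median was 0.24, and the sums were 14400 to 19400 and 15400 to 20700 CPM. The part of cell type makeup in the values of RBOHC, RBOHG and the other members was not tested.

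With ABA, RBOHB, RBOHC, RBOHD and RBOHG were lower in hda9-1 and again none was higher. Of all tested genes 12.7% were called, 7.5% higher and 5.21% lower, with 7.63% of long genes called lower. Of all calls 59% were higher, against 45.9% with scaling by library size alone and 71.6% with length and GC trends removed. These 2 settings moved the median of all genes by -0.0396 and 0.043. In the main fit all 8 members' fold changes were negative, as were 48.2% over all genes, and the members' median was -0.53 against 0.01. Samples did not overlap for RBOHA, RBOHB, RBOHC, RBOHD and RBOHG, and 14.3% of all genes were non-overlapping lower.

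RBOHB differed most, at 1.12 to 1.96 CPM in treated hda9-1 against 2.3 to 4.8 in treated wild type, or 2.34-fold lower (log2 -1.22 ± 0.28, adjusted p = 0.013). It lost its call without wild type ABA replicate 3 (-0.93, adjusted p = 0.053), hda9-1 ABA replicate 1 (-1.18, adjusted p = 0.056) or hda9-1 ABA replicate 3 (-1.06, adjusted p = 0.054), and under limma-voom (-1.18, adjusted p = 0.066), in a range over alternatives of 0.00019 to 0.066. RBOHG, at 1.66 to 2.17 against 3.18 to 3.82 CPM, was 1.75-fold lower (log2 -0.80 ± 0.18, adjusted p = 0.0092), a call lost under limma-voom (adjusted p = 0.06) and with the 2 groups compared only (0.065), in a range over alternatives of 0.00077 to 0.065. RBOHD, at 22.5 to 25.4 against 31.6 to 37.1 CPM, had a log2 fold change of -0.53 ± 0.11 (adjusted p = 0.0052), near its value without ABA. RBOHC, at -0.61 ± 0.18 (adjusted p = 0.039), lost its call under 7 of 12 single-library removals, with adjusted p from 0.0078 to 0.13 over alternatives. RBOHA at -0.53 ± 0.18 (adjusted p = 0.068), RBOHE at -0.28 ± 0.12 (adjusted p = 0.14), RBOHF at -0.23 ± 0.11 (adjusted p = 0.17) and RBOHI at -0.26 ± 0.46 (adjusted p = 0.74) did not pass.

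Without hda9-1 ABA replicate 2, 4640 genes were called in place of 2660. Of these, 2090 were lower in place of 1090, and 2550 higher in place of 1570. Members called lower were 6 in place of 4. RBOHE at -0.38 (adjusted p = 0.045, range over alternatives 0.045 to 0.38) and RBOHF at -0.39 (adjusted p = 0.011, range 0.011 to 0.47) joined. When length and GC trends were removed as well, neither passed, with RBOHE at -0.22 (adjusted p = 0.25) and RBOHF at -0.21 (adjusted p = 0.13). With trends removed and all 12 samples kept, the 4 members called were those of the main fit, RBOHB at -1.16, RBOHC at -0.55, RBOHD at -0.45 and RBOHG at -0.74. Marker calls are those of the main fit with ABA, where 5.21% of all genes were called lower. Guard cell markers summed to 62.1 to 66.5 CPM in wild type and 35.3 to 42 CPM in hda9-1. There FAMA at -0.79, KAT1 at -0.71 and SLAC1 at -0.73 were lower, 3 of 6. The root hair sums were 74.4 to 107 and 30.8 to 59.9 CPM, with none of 6 markers called. CASP2 at -1.05 was the 1 of 9 endodermis markers that was lower, and the sums were 83.8 to 117 and 56.3 to 87.1 CPM. Of the 5 mesophyll and shoot markers LHCB2.1 at -0.61 was lower, with a list median of -0.13 and sums of 15100 to 15200 and 14800 to 17400 CPM. Their part in the members' values was not tested.

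**Figure D4:**
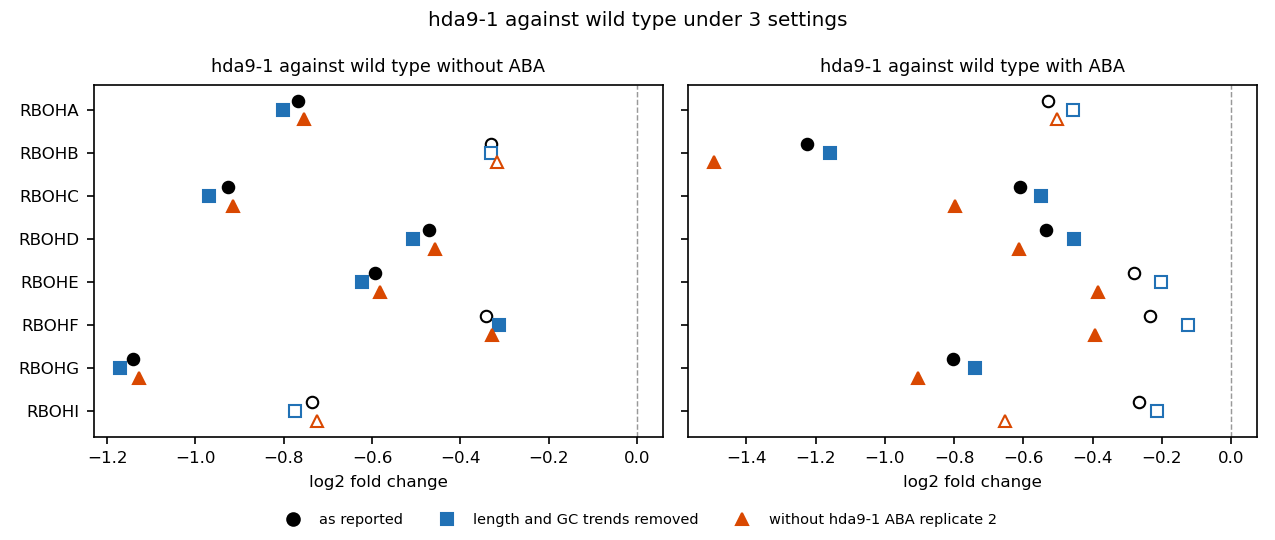
Log2 fold change of hda9-1 against wild type for the 8 tested RBOH genes without ABA (left) and with ABA (right), as reported (circles), with length and GC trends removed (squares) and without hda9-1 ABA replicate 2 (triangles); filled symbols passed an adjusted p of 0.05. Every symbol lies below 0, and with ABA RBOHE and RBOHF are filled without that library only.

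The ABA response of no member was shown to differ between genotypes. The interaction of genotype and ABA called 0% of the 20924 genes in edgeR, with 2467 genes and 1 member, RBOHB, at an unadjusted p under 0.05, while limma-voom called 0 and DESeq2 129 genes, no member among them. For RBOHB the difference of log2 fold changes was -0.89 (95% interval -1.68 to -0.10, adjusted p = 0.38). RBOHD had the narrowest interval, -0.38 to 0.25 around -0.06, and RBOHF one of -0.23 to 0.44 around 0.11. For RBOHE, RBOHG and RBOHC the differences were 0.31, 0.34 and 0.32, with intervals from -0.06 to 0.69, -0.17 to 0.84 and -0.22 to 0.85. Without hda9-1 ABA replicate 2, 1612 genes were called, and still 0 members.

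Across the 12 samples the members formed an uneven pattern, given here as a description of samples that share group differences. Log2 CPM of RBOHD correlated with RBOHG at r = 0.979 and with RBOHB at r = 0.956, and RBOHE correlated with RBOHF at r = 0.818 and with RBOHB at r = -0.801. After group means were removed, RBOHD and RBOHG were at 0.234 and RBOHC and RBOHE at 0.825. Over all pairs of tested members these values ran from -0.107 for RBOHG and RBOHI to 0.853 for RBOHB and RBOHI. The gene most like each member, among 14758 nuclear genes of at least 5 CPM, was AT3G07270 for RBOHD (r = 0.987), PLDGAMMA1 for RBOHB (0.986), AT4G29310 for RBOHG (0.986), AT5G40510 for RBOHC (0.983), CYP86A1 for RBOHE (0.992), SUMM2 for RBOHF (0.967) and NPG1 for RBOHA (0.94). For RBOHI it was DCF (0.966). In second place stood RGXT2 for both RBOHD (0.986) and RBOHG (0.985), NADP-ME2 for RBOHB (0.986), the proton pump gene HA7 for RBOHC (0.981) and ALPHA-VPE for RBOHE (0.992).

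A list of 13 genes held kinases that act on RBOHD or RBOHF and the calcium sensors CBL1 and CBL9. After ABA in wild type 2 of 13 were higher and 2 lower, with a median of -0.04, near the shares of 17% and 14% over all genes. OST1, the ABA-activated kinase that phosphorylates RBOHF, rose by 1.30 (adjusted p = 4.1e-07) and the calcium sensor gene CBL9 by 0.74 (adjusted p = 2.6e-05), while the immune kinase genes PBL1 at -0.48 and BIK1 at -0.42 fell. In hda9-1 the counts were 2 and 4 with a median of 0.12, where 23.3% of all genes were higher and 18.6% lower. OST1 rose there by 1.21 and CBL9 by 0.59, and PBL1 at -0.51 and BIK1 at -0.48 fell as in wild type. Between genotypes without ABA, where 6.98% of all genes were higher and 6.57% lower, PBL13, a negative regulator of RBOHD, was lower at -0.83 (adjusted p = 0.013) and CIPK26 higher at 0.28 (adjusted p = 0.045), and with ABA, against 7.5% of all genes higher, SIK1 was higher at 0.25 (adjusted p = 0.03).

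A list of 14 genes upstream of the oxidases held receptors, G proteins with their regulators and the phospholipases PLDALPHA1 and PLDDELTA. After ABA in wild type 4 were higher and 1 lower, against 17% and 14% of all genes, and in hda9-1 5 and 2, against 23.3% and 18.6%, with medians of 0.09 and 0.08. The phospholipase gene PLDDELTA rose by 1.38 (adjusted p = 6.1e-09) and 1.40 (adjusted p = 4e-09), and GHR1, a guard cell receptor-like kinase gene, was at -0.79 and -0.75. FLS2, the flagellin receptor gene, was the 1 of 14 called in each genotype comparison, where 6.57% of all genes were lower without and 5.21% with ABA. It was lower at -0.60 (adjusted p = 0.012) without and -0.66 (adjusted p = 0.0075) with ABA.

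Of 9 apoplastic and NADPH-supply partners, 2 were higher and 4 lower after ABA in wild type, against 17% and 14% of all genes, and 4 and 3 in hda9-1, against 23.3% and 18.6%, with medians of 0.20 and 0.22. The aquaporin gene PIP2;1 rose by 0.68 and 0.53, and NADP-ME2, a malic enzyme gene that supplies NADPH, was at -1.20 (adjusted p = 1.9e-07) and -1.28 (adjusted p = 8e-08). Without ABA, G6PD6 at -0.35 and PRX34 at -0.37 were lower in hda9-1, and with ABA NADP-ME2 at -0.37 and PRX33 at -0.78, with none of 9 higher in either comparison. These are 2 of 9 lower each time, against 6.57% of all genes without and 5.21% with ABA.

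Of 8 genes that respond to reactive oxygen, 7 were tested, with 2 higher and 1 lower after ABA in wild type, against 17% and 14% of all genes, and 3 and 3 in hda9-1, against 23.3% and 18.6%. Their medians were 0.04 and 0.09, which the size of the APX2 rise given next cannot move. APX2, a cytosolic ascorbate peroxidase gene, had 240 counts over the treated and 0 over the untreated wild type group, at least 84.5-fold higher against 3 counts over the group. In hda9-1 it had 191 and 2 counts, a ratio of 98 with a 95% counting interval of 26.8 to 815. The interval and the bound in wild type rest on counts summed over each group and leave out the spread among samples. The zinc finger gene ZAT10 rose by 1.45 and 1.14, and the kinase gene OXI1 was at -1.74 and -0.93. MPK6, 1 of 7 against 6.98% of all genes, was higher in hda9-1 without ABA at 0.39 (adjusted p = 0.01), and none of 7 was called between genotypes with ABA.

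The ferric reductase oxidases (FRO), membrane relatives of the RBOH proteins that reduce iron in place of oxygen, had 6 of 8 genes tested. After ABA in wild type FRO4 rose by 1.51 and the root iron reductase gene FRO2 was at -2.61, 1 of 6 in each direction against 17% and 14% of all genes, with a median of -0.09. In hda9-1, 2 were higher and 3 lower with a median of -0.50, against 23.3% and 18.6% of all genes. FRO3 was lower in hda9-1 without ABA at -0.46 (adjusted p = 0.015), where 6.57% of all genes were lower. With ABA 4 of 6 were lower, against 5.21% of all genes, among them FRO3 at -0.59 (adjusted p = 0.0048) and FRO6 at -1.23 (adjusted p = 0.012). None of the genes of these 5 lists was called in the interaction.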

How the data were processed

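The authors deposited 1 table of whole-number counts per gene for the 12 samples, with no normalization seen in the values. The submitters' processing notes name Bowtie2, Salmon, limma 3.56 and TAIR10 without roles, and whether alignments or rounded estimates were counted is not given in the sources used here. Exon lengths, overlaps and sequences come from the RefSeq annotation of TAIR10.1.

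In R 4.3.3, filterByExpr (minimum count 10, minimum total 15) left 20924 genes with 99.99% of counts. edgeR 4.0.16 fitted TMM-scaled counts of all 12 samples with 4 group means (glmQLFit, robust), and 5 two-sided contrasts were tested with Benjamini-Hochberg adjustment over all genes, called at 0.05. Levels are CPM and RPKM from these factors. The test was checked on simulated data. Coding sequences were aligned with mafft 7.526. The windows before RBOHA and RBOHB are not reported here. DESeq2 1.42.0, limma-voom (limma 3.58.1) and the other settings described below were alternatives.

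Members, related gene lists and markers were chosen with earlier results of these data known. All 10 members are named. Of each related list, up to 2 called genes per direction with the smallest p are eligible in each ABA comparison, and up to 2 in each genotype comparison. For likeness, the 2 genes with the highest Pearson r were taken. Called markers named beside a result were chosen after their values were seen.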

Additional observations from a re-analysis of the deposited data

How the results depend on the processing

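Over 952 recomputed fold changes of the tested members under the alternatives, 900 kept direction and side of the threshold, 22 lost the threshold, 20 gained it and 10 changed sign. The ABA calls of RBOHB, RBOHD, RBOHE and RBOHG held under every alternative run, in both genotypes. The 10 sign changes were of values that never passed. RBOHC after ABA in hda9-1 was 0.12 with length and GC trends removed, 0.012 with trends removed and without hda9-1 ABA replicate 2, and -0.25 to 0.099 with single libraries left out (positive without hda9-1 untreated replicate 1 or ABA replicate 3). The RBOHD interaction was 0.055 with trends removed, 0.063 with trends removed without hda9-1 ABA replicate 2, and -0.16 to 0.063 with single libraries left out (positive without hda9-1 untreated replicate 2). The RBOHF interaction was -0.063 to 0.19 with single libraries left out (negative without hda9-1 ABA replicate 2). RBOHI between genotypes with ABA was -0.65 to 0.14 with single libraries left out (positive without wild type ABA replicate 3 or hda9-1 ABA replicate 3). The cause was not tested. Members called between genotypes with ABA were 2 under limma-voom and 2 to 6 with single libraries left out. All genes called there were 1433 with the 2 groups compared only and 1075 to 4640 with single libraries left out. Without ABA they were 1382 to 3808 with single libraries left out and 4398 with trends removed without hda9-1 ABA replicate 2, a setting chosen after seeing the data that moved the median of all genes by 0.1004. Removing trends with all 12 samples kept moved that median by 0.0986. The interaction called 1 gene each without a filter, with trends removed, with library size alone or with upper-quartile factors, 129 in DESeq2, 168 with trends removed without hda9-1 ABA replicate 2, and 0 to 1612 with single libraries left out. The order of members by RPKM did not change with coding length. It did not change with RLE factors either, but these scale all members of a library alike and cannot alter the order within a sample.

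Replicate numbers showed no pairing of the samples: deviations of same-numbered samples correlated at -0.133 to 0.103 over 18 pairs, 1 of them over 0.1. Samples with different numbers were at -0.136 to 0.216 over 36 pairs, 2 of them over 0.1. With 3 samples per group, these values cannot show that samples were not prepared in sets. With the replicate block, 6237 and 8458 genes were called for ABA in wild type and hda9-1, 2539 and 2344 between genotypes without and with ABA, and 0 in the interaction. RBOHF was then called for ABA in wild type (0.29, adjusted p = 0.035) and between genotypes without ABA (-0.34, adjusted p = 0.036), and no other member's call changed. RBOHH and RBOHJ had at most 2 counts in any library, and the part of depth and of the tissue sampled in this was not tested.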
